A study of Mus musculus with 18 samples.

Results

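Matrix metalloproteinases (MMPs), the secreted ADAMTS metalloproteinases, the ADAMTS-like proteins and the tissue inhibitors of metalloproteinases (TIMPs) were followed in mouse retinal pigment epithelium (RPE) samples by RNA-seq. Members were found by symbol alone, as *Mmp*, *Adamts* or *Adamtsl* followed by a number, and *Timp1* to *Timp4*. The rule found 51 of the 52636 genes in the count table, and the 43 genes with at least 10 counts in 3 or more of the 18 libraries, whichever their group, are described. They comprised 16 of 23 *Mmp* genes, 18 of 19 *Adamts* genes, all 5 *Adamtsl* genes and all 4 *Timp* genes. The 8 genes left out were *Mmp1a*, *Mmp1b*, *Mmp7*, *Mmp8*, *Mmp10*, *Mmp20*, *Mmp27* and *Adamts13*, and *Mmp1a*, *Mmp10* and *Mmp20* had no count in any library.

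MMPs are zinc-dependent proteases that are made as inactive precursors and cleave collagens, elastin and other matrix proteins once their propeptide is removed. ADAMTS proteases carry thrombospondin repeats that hold them in the matrix, and they cleave hyalectan proteoglycans such as versican and aggrecan or trim procollagens. ADAMTS-like proteins share the repeats but have no protease domain. TIMPs bind the active site of these proteases and block it. In the eye, TIMP3 made by the RPE is stored in Bruch's membrane, the matrix between the RPE and the choroid, and its mutation causes Sorsby fundus dystrophy.

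The 18 libraries fell into 6 groups of 3, each library from both eyes of 1 C57BL/6 mouse collected at postnatal day 14. Uninjected mice were set beside mice given AAV8 vectors under the eye's retina at birth, in which the *Best1* promoter, active in RPE cells, drove GFP, the nuclear form of SREBP2 (nSREBP2), a control hairpin against *LacZ* (ctrl sh, labelled Laczsh) or 1 of 2 hairpins against *Lrp2* (*Lrp2* sh1, *Lrp2* sh2). GFP was the control of nSREBP2 and ctrl sh that of both *Lrp2* hairpins, and no engineered allele is named for these mice. The question was which genes respond alike to active SREBP2 and to loss of *Lrp2*, the gene of the endocytic receptor megalin. Retina and optic nerve were dissected away from the eyecups, and the RPE cells were then dissociated with papain and gentle pipetting. Other cells of the eyecup can thus contribute RNA. In such bulk samples fewer cells of a type and less RNA per cell cannot be told apart.

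The libraries held 8921885 to 13696934 counts each, and the floor for a gene without counts was set at 3 counts, which is 0.219 to 0.336 CPM (counts scaled to library size). *Srebf2*, the gene of SREBP2, stood at 236, 207 and 209 CPM with nSREBP2 and at 82.9, 113 and 106 CPM with GFP. *Lrp2* stood at 29.7, 42.8 and 38.2 CPM with sh1, 37.8, 34.5 and 43.9 CPM with sh2 and 167, 87.7 and 100.2 CPM with ctrl sh, so both targets moved as labelled. RNA of the RPE's own markers was found in every group, but at levels that differed widely and were low in several groups. Of 9, 6 fell with GFP against uninjected, while none passed with ctrl sh, whose summed level overlapped that of the uninjected mice. The median log2 fold change of the 9 with ctrl sh was still -1.68, and *Ttr*, at 1133 to 1954 CPM, was the largest part of that sum. The summed level of 9 RPE markers was 2527 to 7472 CPM in uninjected mice, 444 to 553 CPM with GFP, 357 to 545 CPM with nSREBP2, 1779.6 to 3668 CPM with ctrl sh, 1361 to 2187 CPM with sh1 and 450.3 to 797 CPM with sh2. *Rpe65*, the visual cycle isomerase that defines the RPE, was at 371 to 1115 CPM in uninjected mice but at 1.06 to 2.29 CPM with GFP. With ctrl sh it was at 97.8, 2.58 and 1.77 CPM, also below every uninjected library. *Rgr*, another of the markers, was at 617 to 2108 CPM in uninjected mice and at 423, 31.9 and 33.0 CPM with ctrl sh. The fibroblast marker *Col1a1* was at 16008 to 21164 CPM with GFP and 7864 to 14110 CPM in uninjected mice. Read from Y-linked genes, the 3 nSREBP2 mice were male and the 3 GFP mice female, so sex and treatment cannot be told apart within that comparison. The other male libraries were uninjected replicate 3 and *Lrp2* sh2 replicates 2 and 3. The ctrl sh and sh1 mice were thus all female, so sex is also tied to nSREBP2 where its effect is set against that of sh1. In comparisons with sh2 or uninjected mice it is tied in part. Fits with sex as a term used all 18 libraries, and only the uninjected and sh2 groups held both sexes. The sex effect was read from these groups alone, and such values for nSREBP2 rest on it.

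Levels of different genes were compared as CPM per kilobase of exon length, averaged over the 18 libraries. *Timp3* and *Timp2*, at 203 and 195 CPM per kilobase, led the family. Their ranges over libraries, 116 to 291 and 149.96 to 248, overlapped. *Mmp2*, the gene of gelatinase A, followed at 114, *Adamts1*, a versican-cleaving protease, at 85.6 and *Mmp14*, the gene of the membrane-bound collagenase MT1-MMP, at 65.9 CPM per kilobase, and these 3 ranges also overlapped. *Adamtsl4* came next at 31.2 CPM per kilobase, and its highest library, at 43.8, lay above the lowest *Mmp14* library, at 42.4. At the other end, *Timp4*, *Mmp12*, *Adamts18* and *Adamts19* were at 0.380, 0.289, 0.266 and 0.185 CPM per kilobase. The same 5 genes led in the uninjected mice, with *Adamts1* ahead of *Mmp2* there. The protease set was thus led by 1 ADAMTS and 2 MMPs, and the inhibitors by *Timp3* and *Timp2*.

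**Figure D1:**
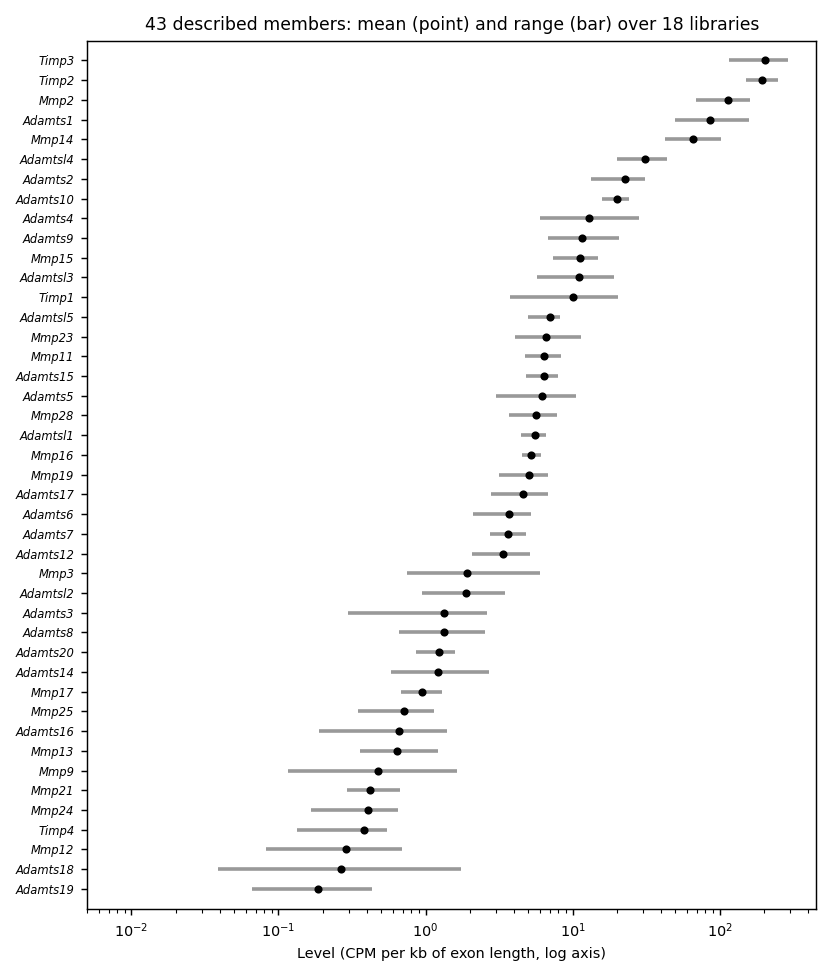
Level of each of the 43 described members in CPM per kilobase of exon length on a log axis, with the mean (point) and the range (bar) over 18 libraries. *Timp3* and *Timp2* lie at the top with means of 203 and 195, and *Adamts19* at the bottom with 0.185.

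Each comparison was tested with edgeR on all genes that passed its count filter. A gene passed the test at an adjusted *P* under 0.05 and was called differentially expressed if its log2 fold change (log2FC) was also above 1 in size. With nSREBP2, all 43 members were tested and 25 (58.1%) passed, against 21% of all genes tested. Of these, 18 rose (12.6% of all genes did) and 7 fell (8.47% of all genes did). The median log2FC of the members was 0.32 and that of all genes -0.02. Called were 10 members (23.3%, against 6.67% of all genes), 9 of them higher (4.71% of all genes) and 1 lower (1.96% of all genes).

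With *Lrp2* sh2, 11 of 43 members (25.6%) passed, against 18.1% of all genes, with 6 higher (8.59% of all genes) and 5 lower (9.48%). Called were 3 members, all higher (6.98%, against 4.76% of all genes called and 2.98% called higher). With *Lrp2* sh1, edgeR called 0 of 42 members, against 0.994% of all genes, and DESeq2 called 0 as well, with 4 that passed. The 3 members that passed by edgeR (7.14%) were lower (2.28% of all genes passed so), against 5.33% of all genes passing in either direction, and 11 members had an unadjusted *P* under 0.05 (19.7% of all genes did). For both hairpins the shares of members called were near those of all genes. The hairpin comparisons share their ctrl sh libraries.

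**Figure D2:**
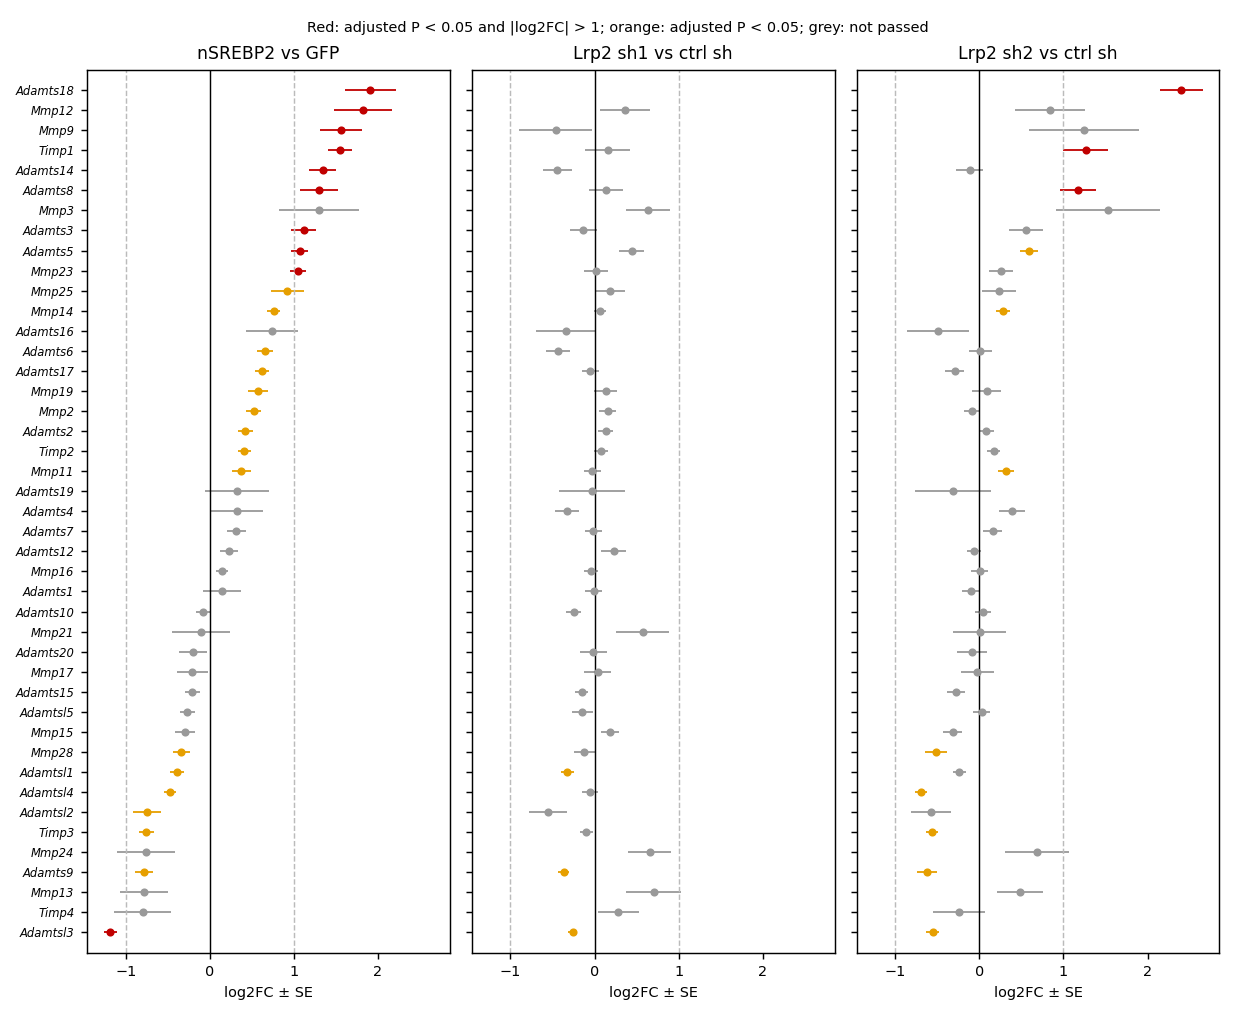
The log2FC ± SE of the described members in the 3 comparisons, ordered by the value with nSREBP2 (3 libraries per group, dashed lines at -1 and 1). Red marks members called, orange those that passed on adjusted *P* alone and grey those that did not pass. *Adamts18* has the highest value with nSREBP2 (1.91) and *Adamtsl3* the lowest (-1.19).

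The inhibitors moved in opposite directions with nSREBP2: *Timp1* and *Timp2* rose and *Timp3* fell. *Timp3* lies at chr10:86300372-86349506 of GRCm38, and 1733 of its 8144 exon bases overlap *Syn3* on the opposite strand, so reads there could belong to either gene if strand was not used. Its level was 1666, 1867 and 1751 CPM with GFP and 1154, 1041 and 941 CPM with nSREBP2. The groups did not overlap and the level was lower with nSREBP2 (log2FC = -0.76 ± 0.087 (SE), edgeR adjusted *P* = 0.0003). *Timp3* was at 1966, 1823 and 1908 CPM with ctrl sh, 1649, 1866 and 1807 CPM with sh1 and 1267, 1254 and 1312 CPM with sh2. It fell with sh2 (log2FC = -0.56 ± 0.073 (SE), edgeR adjusted *P* = 0.001), whereas the sh1 libraries overlapped ctrl sh (log2FC = -0.098 ± 0.073 (SE), edgeR adjusted *P* = 0.523). The direct comparison of sh2 with sh1 passed too, at a log2FC of -0.47 ± 0.067 (edgeR adjusted *P* = 0.000874).

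*Timp1*, an inhibitor of soluble MMPs that is often induced in injured tissue, lies at chrX:20870166-20874735. It was at 4.92, 6.74 and 6.08 CPM with GFP and 17.1, 16.6 and 18.2 CPM with nSREBP2, 2.91-fold higher with no overlap (log2FC = 1.54 ± 0.14 (SE), edgeR adjusted *P* = 8.5e-05). With ctrl sh it was at 3.34, 6.48 and 7.33 CPM, with sh1 at 5.37, 7.36 and 6.29 CPM and with sh2 at 16.8, 11.9 and 11.97 CPM. The sh2 libraries lay above all others of the hairpin groups (log2FC = 1.26 ± 0.27 (SE), edgeR adjusted *P* = 0.0105), while sh1 overlapped ctrl sh (log2FC = 0.16 ± 0.27, edgeR adjusted *P* = 0.814). Without ctrl sh replicate 1 the log2FC with sh2 was 0.97 and *Timp1* passed but was no longer called. Against sh1, sh2 was higher by a log2FC of 1.10 ± 0.18 (edgeR adjusted *P* = 0.00198), a call that ended without sh1 replicate 1 (0.99) or sh2 replicate 1 (0.92).

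*Timp2*, whose protein can both inhibit MT1-MMP and help it to activate gelatinase A, was at 643, 685 and 727 CPM with GFP and 968, 837 and 927 CPM with nSREBP2 (log2FC = 0.41 ± 0.077 (SE), edgeR adjusted *P* = 0.00467). The rise was smaller than that of *Timp1* on the log2 scale. Its values were 691, 775 and 767 CPM with ctrl sh, 703, 789 and 854 CPM with sh1 and 812, 858 and 823 CPM with sh2, and neither hairpin passed (log2FC = 0.072 ± 0.085 and 0.17 ± 0.076, edgeR adjusted *P* = 0.706 and 0.159). *Timp4* stayed between 0.784 and 3.24 CPM over all libraries and passed in none of the 3 comparisons (log2FC = -0.80, 0.28 and -0.24).

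The makeup of the inhibitors was different as well. *Timp3* made up 75.6% to 79.2% of the summed CPM of the 4 *Timp* genes in uninjected mice, 70.4% to 72.9% with GFP and 49.9% to 54.9% with nSREBP2. The share was 69.9% to 73.9% with ctrl sh, 67.7% to 70.0% with sh1 and 59.0% to 61.1% with sh2. These shares are descriptions without a test. They were not scaled by exon length, which was 8144 bases for *Timp3*, 3896 for *Timp2* and 888 for *Timp1*. They therefore compare groups and do not rank the inhibitors, and per kilobase the part of *Timp3* is smaller. In uninjected mice the mean was 267 CPM per kilobase for *Timp3* and 157 for *Timp2*. Summed over the 4 genes, the level was 2454 ± 125 CPM (SD, n = 3) with GFP and 1975 ± 143 CPM with nSREBP2, and 2651 ± 39.5, 2566 ± 178 and 2124 ± 25.1 CPM with ctrl sh, sh1 and sh2.

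**Figure D3:**
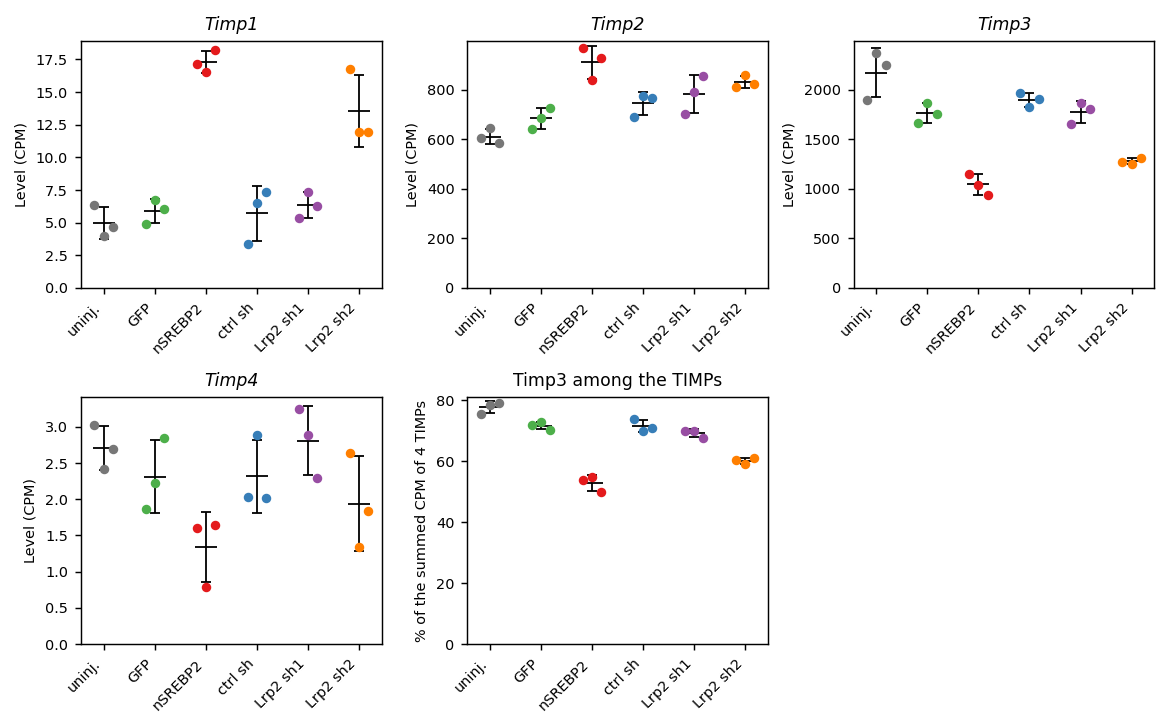
Level of the 4 *Timp* genes in CPM and the share of *Timp3* in their sum, by library (points) with group mean and SD (bars, n = 3). *Timp3* lies at 941 to 1154 CPM with nSREBP2 and 1666 to 1867 CPM with GFP, while *Timp1* lies at 16.6 to 18.2 CPM with nSREBP2 and 4.92 to 6.74 CPM with GFP.

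The proximal promoters of *Timp1* and *Timp3* are shown because these inhibitors moved in opposite directions. Each is the window of 250 bases before the RefSeq start, on the gene's strand in GRCm38.p6, at chrX:20869916-20870165 (plus strand) and chr10:86300162-86300411 (plus strand). RefSeq windows were at hand for 28 of the 43 members. They were searched on both strands for the AP-1 letters TGANTCA, the sterol regulatory letters TCACNCCAC, the palindromic E-box CACGTG and TATAAA, which 6.75%, 1.05%, 6.02% and 12.4% of 32851 windows of this length hold. None of these letters was found in either window, so no base is in capitals.
Timp1: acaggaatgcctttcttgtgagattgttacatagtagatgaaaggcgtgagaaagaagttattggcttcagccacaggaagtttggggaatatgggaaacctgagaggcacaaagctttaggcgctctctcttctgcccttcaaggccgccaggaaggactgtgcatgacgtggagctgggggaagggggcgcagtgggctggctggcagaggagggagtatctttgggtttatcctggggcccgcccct
Timp3: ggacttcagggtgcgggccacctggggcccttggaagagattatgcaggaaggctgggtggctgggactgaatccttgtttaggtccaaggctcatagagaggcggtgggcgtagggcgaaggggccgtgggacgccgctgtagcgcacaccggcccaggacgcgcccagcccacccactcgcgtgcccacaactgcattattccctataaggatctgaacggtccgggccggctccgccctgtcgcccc

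Both gelatinases rose with nSREBP2 (12.6% of all genes rose). *Mmp2* (chr8:92827291-92853420) was at 338, 345 and 406 CPM with GFP and 546, 478 and 542 CPM with nSREBP2 (log2FC = 0.52 ± 0.088 (SE), edgeR adjusted *P* = 0.00262). *Mmp9* (chr2:164940780-164955850), the gene of gelatinase B, was far lower, at 1.19, 1.06 and 1.20 CPM with GFP and 3.95, 3.22 and 3.11 CPM with nSREBP2, and was called (log2FC = 1.56 ± 0.25 (SE), edgeR adjusted *P* = 0.00207). With sh2 *Mmp9* was at 5.83, 1.09 and 1.09 CPM and with ctrl sh at 1.60, 1.02 and 0.759 CPM. Replicate 1 of sh2 alone was high, and the change did not pass (log2FC = 1.25 ± 0.65 (SE), edgeR adjusted *P* = 0.225). *Mmp2* did not pass with either hairpin against ctrl sh (log2FC = 0.15 ± 0.10 with sh1 and -0.084 ± 0.097 with sh2, edgeR adjusted *P* = 0.455 and 0.603).

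*Mmp14* (chr14:54431612-54445364), whose protein cleaves fibrillar collagen at the cell surface and activates gelatinase A, was the most abundant of the membrane-type genes. It was at 323, 327 and 375 CPM with GFP and 609, 568 and 566 CPM with nSREBP2, 1.70-fold higher (log2FC = 0.76 ± 0.077 (SE), edgeR adjusted *P* = 0.000139). It was at 330.5, 381 and 345 CPM with ctrl sh, 366, 354 and 386 CPM with sh1 and 409.8, 464 and 401 CPM with sh2. The rise with sh2 was small (log2FC = 0.28 ± 0.086 (SE), edgeR adjusted *P* = 0.0485) and did not pass in 5 of the 6 fits that left out 1 library, with edgeR adjusted *P* up to 0.16. With sh1 the groups overlapped (log2FC = 0.066 ± 0.070, edgeR adjusted *P* = 0.673). Of the 6 membrane-type genes, 2 rose with nSREBP2 (12.6% of all genes rose). The other was *Mmp25* at 0.92 ± 0.20 (edgeR adjusted *P* = 0.00904), named after its value was seen.

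*Mmp12* (chr9:7344381-7369499), the macrophage elastase gene, was at 0.594, 1.33 and 1.35 CPM with GFP and 3.67, 3.05 and 5.03 CPM with nSREBP2 (log2FC = 1.82 ± 0.34 (SE), edgeR adjusted *P* = 0.00462). The GFP libraries alone would not have met the count filter, so *Mmp12* was kept for testing through the nSREBP2 libraries, where it was high. Its uninjected libraries, at 2.52, 0.871 and 3.77 CPM, reached into the range of nSREBP2, and against them the log2FC was 0.70 and did not pass (edgeR adjusted *P* = 0.286). With sex as a term the log2FC was 1.90 (edgeR adjusted *P* = 0.0756). The summed level of 10 macrophage markers was 401 to 478 CPM with GFP and 659 to 712 CPM with nSREBP2, where 8 of 10 markers rose, none fell and none was at 0, and the part of these cells in the change of *Mmp12* and *Mmp9* was not tested. The 8 neutrophil markers summed to 4.50 to 7.88 CPM with GFP and 9.67 to 12.7 CPM with nSREBP2, but only 2 of them had enough counts to be tested, and both rose. *Camp* was lower in mean level with nSREBP2 (0.457 CPM, against 1.13 CPM with GFP), *Ltf* reached 5.48 CPM in 1 nSREBP2 library, and *Ly6g* had no count in either group.

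*Mmp23* (chr4:155650655-155653384), which encodes a small membrane-anchored member, was at 12.4, 12.7 and 12.2 CPM with GFP and 25.1, 25.5 and 26.7 CPM with nSREBP2 (log2FC = 1.05 ± 0.092 (SE), edgeR adjusted *P* = 5.93e-05). The libraries of each group lay close together and the gap between groups was wide. With neither hairpin did *Mmp23* pass (log2FC = 0.018 with sh1 and 0.26 with sh2). *Mmp28*, the epilysin gene, fell with nSREBP2 (log2FC = -0.34 ± 0.10 (SE), edgeR adjusted *P* = 0.0398) and with sh2 (log2FC = -0.52 ± 0.14 (SE), edgeR adjusted *P* = 0.0282), but failed to pass in 5 and 4 of the 6 fits that left out 1 library, and with sex as a term its log2FC with nSREBP2 was -0.01. *Mmp11*, the stromelysin-3 gene, rose by 0.38 with nSREBP2 and 0.32 with sh2 (edgeR adjusted *P* = 0.0392 and 0.0407), and lost the test in 5 and in all 6 of these fits.

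The collagenase *Mmp13* and the stromelysin *Mmp3*, named after their values were seen, passed in none of the 3 comparisons. *Mmp3* was at 10.2, 2.35 and 4.02 CPM with nSREBP2 and 10.8, 1.84 and 2.51 CPM with sh2, where replicate 1 of each was high. The start-proximal sequences of *Mmp3*, *Mmp12* and *Mmp13*, which lie close together on chromosome 9, are shown because they were the 3 member genes whose windows held the AP-1 letters. Each is the last 60 bases before the RefSeq start on the plus strand of GRCm38.p6, at chr9:7445762-7445821, chr9:7347314-7347373 and chr9:7272454-7272513, and capitals mark TGANTCA and TATAAA. For *Mmp12*, which has 2 RefSeq starts, the window with the match is given. A match is a description of letters and says nothing of binding.
Mmp3: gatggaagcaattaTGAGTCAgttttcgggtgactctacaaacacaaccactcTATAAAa
Mmp12: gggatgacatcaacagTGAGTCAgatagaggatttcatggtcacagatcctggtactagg
Mmp13: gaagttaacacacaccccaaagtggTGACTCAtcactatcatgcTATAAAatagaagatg

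Summed over the 16 *Mmp* genes the level was 894 ± 68.8 CPM (SD, n = 3) with GFP and 1314 ± 66.6 CPM with nSREBP2, while ctrl sh, sh1 and sh2 gave 933 ± 83.3, 1003 ± 45.8 and 976 ± 34.1 CPM. Of the 16, 8 rose and 1 fell with nSREBP2, 0 and 0 passed with sh1, and 2 rose and 1 fell with sh2. Of all genes tested, 12.6% rose and 8.47% fell with nSREBP2, 5.33% passed with sh1, and 8.59% rose and 9.48% fell with sh2.

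Among the 7 ADAMTS hyalectanases, which cleave versican and aggrecan, 2 rose and 1 fell with nSREBP2 (12.6% and 8.47% of all genes did). *Adamts5* (chr16:85856173-85901828), a main aggrecanase of cartilage, was at 55.9, 50.9 and 42.8 CPM with GFP and 100.1, 101 and 113 CPM with nSREBP2 (log2FC = 1.07 ± 0.10 (SE), edgeR adjusted *P* = 9.29e-05). Without GFP replicate 3 its log2FC was 0.98, so it passed but was not called. With ctrl sh it was at 59.9, 49.1 and 53.4 CPM and with sh2 at 82.8, 89.1 and 70.5 CPM, and it rose (log2FC = 0.59 ± 0.10 (SE), edgeR adjusted *P* = 0.00432). The sh1 libraries, at 54.8, 84.2 and 81.5 CPM, reached from the ctrl sh range to that of sh2 and did not pass (log2FC = 0.44 ± 0.15, edgeR adjusted *P* = 0.121).

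*Adamts8* (chr9:30942562-30963838) was at 3.06, 4.26 and 5.55 CPM with GFP and 9.12, 11.1 and 11.7 CPM with nSREBP2 (log2FC = 1.30 ± 0.23 (SE), edgeR adjusted *P* = 0.00307). Against the uninjected mice, at 7.76, 5.13 and 3.13 CPM, the rise with nSREBP2 was 0.96 and passed without being called (edgeR adjusted *P* = 0.0381). It was at 3.55, 4.29 and 3.71 CPM with ctrl sh, 3.56, 3.97 and 5.19 CPM with sh1 and 8.46, 10.7 and 6.70 CPM with sh2. The rise with sh2 was called (log2FC = 1.17 ± 0.21 (SE), edgeR adjusted *P* = 0.00461), though without sh2 replicate 2 the log2FC was 0.98, and against uninjected it was 0.67 and did not pass (edgeR adjusted *P* = 0.158). Sh2 lay above sh1 by 1.03 ± 0.22 (edgeR adjusted *P* = 0.00759), and this call ended without sh1 replicate 1 (0.92), sh1 replicate 2 (0.98) or sh2 replicate 2 (0.84). Of its exons, 489 bases overlap a gene on the other strand.

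*Adamts9*, needed for versican turnover in development, went the other way and was lower in each of the 3 comparisons. Of its exons, 1805 bases overlap genes on the other strand. It was at 180.2, 185 and 228 CPM with GFP and 102, 123 and 120.1 CPM with nSREBP2 (log2FC = -0.78 ± 0.11 (SE), edgeR adjusted *P* = 0.000879). It was at 191, 203 and 195 CPM with ctrl sh, 153, 164 and 139 CPM with sh1 and 105, 153 and 121 CPM with sh2, and it fell with sh1 (log2FC = -0.37 ± 0.070 (SE), edgeR adjusted *P* = 0.0169) and sh2 (log2FC = -0.63 ± 0.12 (SE), edgeR adjusted *P* = 0.00671). The sh1 change failed to pass in 4 of the 6 fits that left out 1 library (edgeR adjusted *P* up to 0.0704).

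*Adamts1* (chr16:85793827-85803113), the neighbour of *Adamts5*, did not pass with nSREBP2, sh1 or sh2 (log2FC = 0.14 ± 0.23, -0.012 ± 0.096 and -0.10 ± 0.10). It and *Adamts4* (chr1:171250421-171260637) varied between GFP mice, at 265, 358 and 592 CPM and 28.9, 37.3 and 84.0 CPM, where replicate 3 was the highest for both, and lay at 784, 615 and 836 CPM and 135, 82.2 and 121 CPM in uninjected mice. *Adamts4* fell with ctrl sh against uninjected mice (log2FC = -1.29 ± 0.21 (SE), edgeR adjusted *P* = 0.0146), as did *Adamts1* (log2FC = -0.97 ± 0.14 (SE), edgeR adjusted *P* = 0.01), and without ctrl sh replicate 2 neither passed. The summed level of 10 immediate early genes, a set chosen after these values were seen, was 6576 to 8089 CPM in uninjected mice, 2708 to 5052 CPM with GFP and 3126 to 5048 CPM with ctrl sh, with replicate 3 the highest of the GFP and of the ctrl sh libraries. These genes respond within minutes to handling of cells, and their part in the levels of *Adamts1* and *Adamts4* was not tested. Between sh2 and sh1, *Adamts4* was higher with sh2 (log2FC = 0.71 ± 0.096, edgeR adjusted *P* = 0.000607), with 55.2, 70.8 and 57.4 against 39.5, 36.1 and 36.8 CPM. It did not pass in a fit of all 18 libraries (log2FC = 0.70, edgeR adjusted *P* = 0.092) or with sex as a term (0.58, edgeR adjusted *P* = 0.318).

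**Figure D4:**
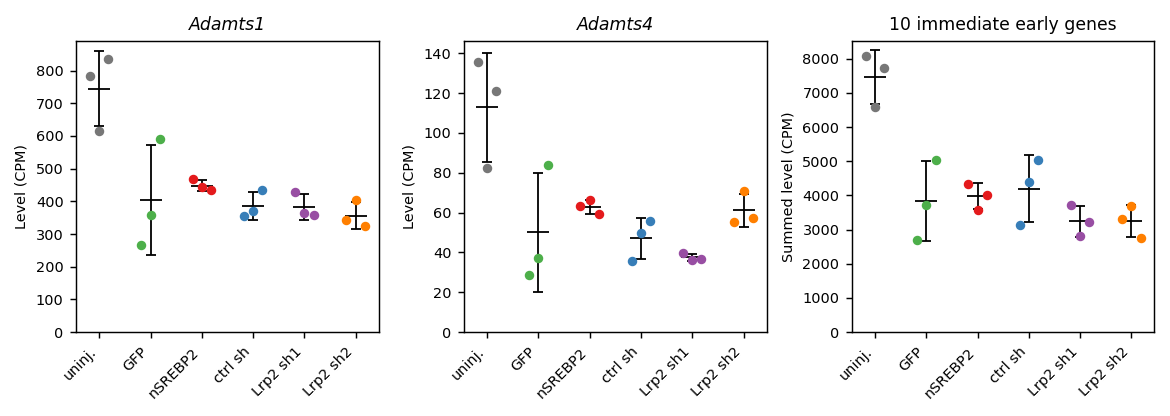
Level of *Adamts1* and *Adamts4* and the summed level of 10 immediate early genes in CPM, by library (points) with group mean and SD (bars, n = 3). The mean of each measure is highest in the uninjected mice, where *Adamts1* lies at 615 to 836 CPM, and GFP replicate 3 is the highest GFP library in each.

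The window of *Adamts1* is shown because it was the 1 member window with the sterol regulatory letters, which the SREBP proteins are known to read in promoters of cholesterol genes, while its level did not pass with nSREBP2. It spans the 250 bases before the RefSeq start at chr16:85803114-85803363, given 5′ to 3′ on the minus strand, with the sterol letters (here on the opposite strand) and TATAAA in capitals.
Adamts1: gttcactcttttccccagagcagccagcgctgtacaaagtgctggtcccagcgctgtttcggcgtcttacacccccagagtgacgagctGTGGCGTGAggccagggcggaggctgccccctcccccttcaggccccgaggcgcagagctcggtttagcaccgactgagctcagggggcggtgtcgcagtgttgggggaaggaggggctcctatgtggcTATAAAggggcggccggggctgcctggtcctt

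All 3 procollagen N-proteinases rose with nSREBP2 (12.6% of all genes rose). These enzymes remove the aminopropeptide of fibrillar procollagens, and *Adamts3* also acts on VEGF-C. *Adamts14* (chr10:61197112-61273438) was at 5.01, 5.95 and 4.35 CPM with GFP and 12.8, 12.1 and 14.0 CPM with nSREBP2 (log2FC = 1.34 ± 0.16 (SE), edgeR adjusted *P* = 0.000357). It was at 5.37, 6.33 and 5.48 CPM with ctrl sh, 4.50, 4.46 and 3.66 CPM with sh1 and 5.27, 5.20 and 5.27 CPM with sh2, a narrow band below every nSREBP2 library, and neither hairpin passed (log2FC = -0.44 ± 0.17 and -0.11 ± 0.16, edgeR adjusted *P* = 0.184 and 0.681).

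*Adamts3* (chr5:89677087-89883334) was at 5.26, 6.66 and 6.75 CPM with GFP and 13.1, 14.3 and 13.3 CPM with nSREBP2 (log2FC = 1.12 ± 0.15 (SE), edgeR adjusted *P* = 0.000669). It was lower in the uninjected mice, at 3.83, 2.42 and 1.62 CPM, than with ctrl sh, at 6.53, 5.62 and 6.83 CPM (log2FC = 1.24 ± 0.29 (SE), edgeR adjusted *P* = 0.0407), a call lost in 5 of the 6 fits that left out 1 library. With sh2 it was at 12.1, 7.55 and 8.04 CPM, above every ctrl sh library and with replicate 1 the highest, but did not pass (log2FC = 0.56 ± 0.20 (SE), edgeR adjusted *P* = 0.0876). The third enzyme, *Adamts2*, named after its value was seen, rose by 0.42 with nSREBP2 (edgeR adjusted *P* = 0.00712).

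The fibrillin-associated *Adamts17* and *Adamts6*, also named after their values were seen, rose with nSREBP2 by 0.62 ± 0.079 and 0.66 ± 0.095 (edgeR adjusted *P* = 0.000551 and 0.00108), and with sex as a term *Adamts6* did not pass (0.57, edgeR adjusted *P* = 0.173). *Adamts10* and *Adamts19*, the other genes of this role, did not pass, nor did the COMP-cleaving *Adamts7* and *Adamts12*. *Adamts18*, whose human counterpart is mutated in an eye disorder with small cornea and myopic fundus changes, had the largest rise of any member with nSREBP2 and with sh2, at low levels. It lies at chr8:113697126-113848738 and was at 0.594, 1.15 and 1.05 CPM with GFP and 3.48, 3.05 and 4.11 CPM with nSREBP2 (log2FC = 1.91 ± 0.30 (SE), edgeR adjusted *P* = 0.00185), and at 0.653, 0.703 and 0.843 CPM with ctrl sh, 0.395, 0.579 and 0.765 CPM with sh1 and 4.31, 3.69 and 3.60 CPM with sh2 (log2FC = 2.40 ± 0.26 (SE), edgeR adjusted *P* = 0.000369). Its counts were too low for it to be tested with sh1 against ctrl sh, and with nSREBP2 and with sh2 it was kept for testing through the group in which it was high.

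Between the hairpins *Adamts18* had 5, 7 and 9 counts with sh1 and 54, 44 and 43 with sh2. Here too it was kept for testing only through the sh2 libraries, where it was high. On that footing sh2 was 6.64-fold higher (log2FC = 2.73 ± 0.29 (SE), edgeR adjusted *P* = 0.000155). The uninjected mice were at 17.8, 1.06 and 0.755 CPM, with replicate 1 far above all other libraries. Against them the log2FC turned to -0.92 for nSREBP2 and -0.78 for sh2 (edgeR adjusted *P* = 0.514 and 0.584). In a fit of all 18 libraries, which includes that library's spread, *Adamts18* did not pass with nSREBP2 or sh2 (log2FC = 1.90 and 2.39, edgeR adjusted *P* = 0.113 and 0.0547), and with sex as a term its value with nSREBP2 was 3.45 (edgeR adjusted *P* = 0.0548). The sex effect there came from the uninjected and sh2 groups alone. Uninjected replicate 1 was female, so the value of 3.45 rests in part on that library.

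The 10 rod photoreceptor markers moved with *Adamts18*, *Timp1* and *Adamts8* in the sh2 group. Their sum was 74.7 to 394 CPM with sh2 and 43.5 to 62.4 CPM with ctrl sh, and 8 of 10 rose and none fell. With nSREBP2 the sum was 232 to 324 CPM against 37.2 to 295 CPM with GFP, with 1 of 10 higher. No marker of the list was at 0, and the part of retinal RNA in these changes was not tested.

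Of the ADAMTS-like genes, 4 of 5 fell with nSREBP2 and none rose (8.47% of all genes fell and 12.6% rose). Their proteins bind fibrillin microfibrils or the surrounding matrix. *Adamtsl3*, at chr7:82335694-82614450, was the only member called lower in the 3 comparisons. It was at 95.5, 112 and 109.8 CPM with GFP and 48.9, 44.5 and 46.4 CPM with nSREBP2, a fold of 0.440 (log2FC = -1.19 ± 0.078 (SE), edgeR adjusted *P* = 1.26e-05). With ctrl sh it was at 91.6, 90.4 and 93.4 CPM, with sh1 at 78.1, 74.9 and 76.7 CPM and with sh2 at 57.3, 60.04 and 69.1 CPM. The 3 hairpin groups did not overlap, and both hairpins passed against ctrl sh (log2FC = -0.26 ± 0.053 (SE), edgeR adjusted *P* = 0.0224 for sh1, log2FC = -0.55 ± 0.078 (SE), edgeR adjusted *P* = 0.00147 for sh2). The sh1 change failed to pass in 5 of the 6 fits that left out 1 library. Uninjected mice were higher than ctrl sh, at 149, 121 and 130.3 CPM (log2FC = -0.56 ± 0.091 (SE), edgeR adjusted *P* = 0.0143), a difference that did not pass without ctrl sh replicate 2 or 3 (edgeR adjusted *P* = 0.078 and 0.0605).

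*Adamtsl4*, whose human counterpart is mutated in displacement of the lens, was at 134, 131 and 143 CPM with GFP and 102, 91.1 and 102 CPM with nSREBP2 (log2FC = -0.47 ± 0.071 (SE), edgeR adjusted *P* = 0.00138). It was at 155, 148 and 146 CPM with ctrl sh, 119, 156 and 157 CPM with sh1 and 94.9, 95.8 and 84.6 CPM with sh2, lower with sh2 (log2FC = -0.70 ± 0.071 (SE), edgeR adjusted *P* = 0.000297) and overlapping ctrl sh with sh1 (log2FC = -0.056 ± 0.098, edgeR adjusted *P* = 0.816). *Adamtsl1*, the punctin gene, fell with nSREBP2 (log2FC = -0.39 ± 0.084 (SE), edgeR adjusted *P* = 0.00933) and with sh1 (log2FC = -0.32 ± 0.075 (SE), edgeR adjusted *P* = 0.0379), and the sh1 change failed in 5 of the 6 fits that left out 1 library. Without GFP replicate 2 the nSREBP2 changes of *Adamtsl1* and *Adamtsl2* did not pass (edgeR adjusted *P* = 0.0507 and 0.0591). *Adamtsl2*, named after its value was seen, fell with nSREBP2 (log2FC = -0.74, edgeR adjusted *P* = 0.0117), but with sex as a term neither it nor *Adamtsl1* passed (edgeR adjusted *P* = 0.0934 and 0.386). Summed over the 5 genes the level was 372 ± 21.8 CPM (SD, n = 3) with GFP and 245 ± 6.501 CPM with nSREBP2, and 373 ± 6.397, 327 ± 30.2 and 266 ± 2.62 CPM with ctrl sh, sh1 and sh2.

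**Figure D5:**
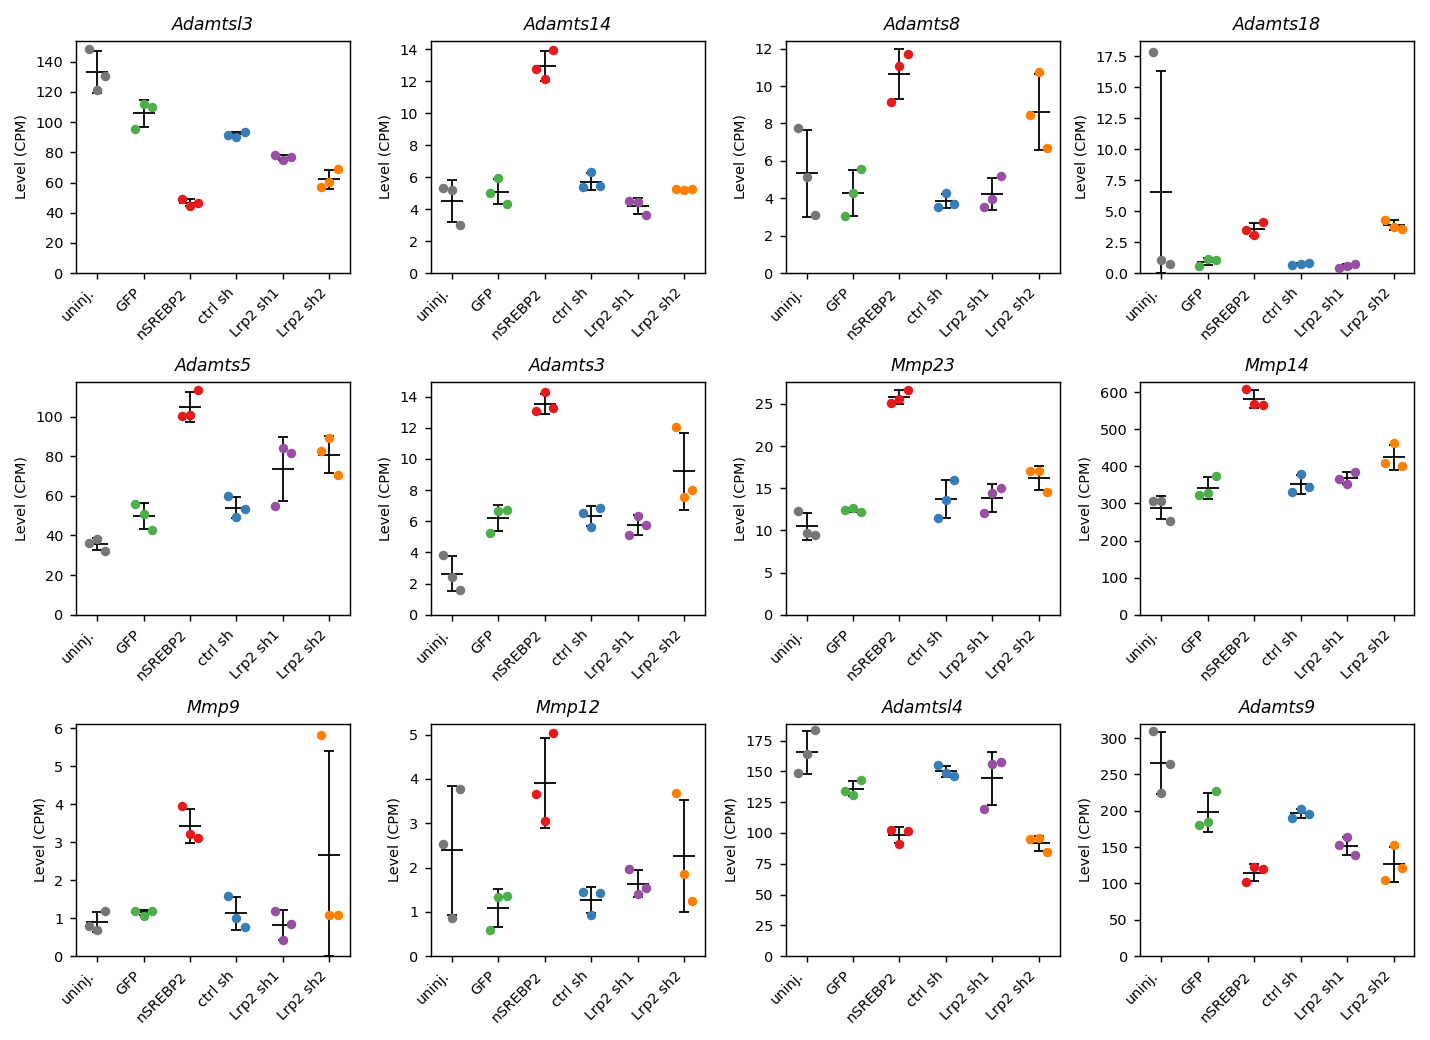
Level of 12 named members in CPM by library (points) with group mean and SD (bars, n = 3, cut at 0). *Adamtsl3* is lowest with nSREBP2, at 44.5 to 48.9 CPM, and *Adamts18* has 1 uninjected library at 17.8 CPM while the other two are at 1.06 and 0.755 CPM.

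Markers of other cells moved with nSREBP2 beside the rises of *Mmp2*, *Mmp14*, *Timp2*, *Adamts2*, *Adamts5* and *Adamts14* and the falls of *Timp3*, *Adamts9* and the ADAMTS-like genes. The 10 fibroblast markers summed to 36446 to 45794 CPM with GFP and 74435 to 89791 CPM with nSREBP2, and 9 of 10 rose and none fell. Most of these sums came from the collagen genes *Col1a1* and *Col1a2*. *Col1a1* was at 16008 to 21164 CPM with GFP and 36668 to 45888 CPM with nSREBP2. *Col1a2* was at 10192 to 13176 CPM and 20327 to 25280 CPM. The 9 endothelial markers summed to 1950.4 to 2468 CPM with GFP and 1473 to 1555 CPM with nSREBP2, and 7 of 9 fell. With sh2 the endothelial sum was 1385 to 1452 CPM against 2099 to 2219 CPM with ctrl sh, and 8 of 9 fell, while the fibroblast sums, 45127 to 53660.0 and 35632 to 49268 CPM, overlapped, with 3 of 10 markers higher and 1 lower. The 9 mural and smooth muscle markers summed to 2749.6 to 3606 CPM with GFP and 2160.0 to 2493 CPM with nSREBP2 (4 of 9 fell). Of the 9 RPE markers, 2 rose and 3 fell with nSREBP2, 1 fell with sh1 and 5 fell with sh2. No marker of these lists was at 0 over all libraries, and the part of these cells in the changes of the members was not tested.

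Between the hairpins, 14 of 43 members passed for sh2 against sh1 (32.6%, with 22.4% of all genes), 8 of them higher with sh2 (10.2% of all genes) and 6 lower (12.3%). Of these, 3 were called, all higher (6.98%, with 5.13% of all genes called and 3.32% called higher): *Adamts18*, *Adamts8* and *Timp1*. Markers of other cells differed between the hairpins too: 7 of 10 macrophage and 8 of 10 rod photoreceptor markers were higher with sh2, and 9 of 9 endothelial and 6 of 9 RPE markers were lower, and their part in the members' differences was not tested. *Adamts18*, *Adamts8* and *Timp1* are also the genes called with sh2 against ctrl sh, and the sh2 libraries are shared by both comparisons. In both, *Adamts18* was kept for testing through the sh2 libraries, where it was high. The injection itself was read from the vector controls. GFP against uninjected gave 0 calls by edgeR (1.41% of all genes) and 1 by DESeq2, with 18 members at an unadjusted *P* under 0.05 (19.8% of all genes) and 1 that passed (2.48% of all genes, and 1.82% were lower as it was), *Adamtsl2* (log2FC = -0.75 ± 0.14 (SE), edgeR adjusted *P* = 0.03), lost in 5 of the 6 fits that left out 1 library. Ctrl sh against uninjected gave 2 calls of 42 (4.76%, with 2.39% of all genes), *Adamts3* higher (0.875% of all genes) and *Adamts4* lower (1.51%), and 5 members passed (11.9%, with 6.49% of all genes), 2 higher (3.13% of all genes) and 3 lower (3.37%).

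The effect of nSREBP2 was also tested against that of each hairpin. Sex and nSREBP2 cannot be told apart in the test against sh1, and they are tied in part in that against sh2. The controls, GFP and ctrl sh, also differed in the summed level of the RPE markers given above, and the part of this was not tested. The effect of nSREBP2 differed from the effect of sh1 for 15 of 43 members (34.9%, with 12.5% of all genes), 10 of them more positive with nSREBP2 (6.53% of all genes) and 5 more negative (5.98%). It differed from the effect of sh2 for 7 of 43 (16.3%, with 6.39% of all genes), 6 of them more positive (3.80% of all genes) and 1 more negative (2.58%). *Adamts14*, whose log2FC was 1.34 with nSREBP2, -0.44 with sh1 and -0.11 with sh2, differed from both (differences 1.78 ± 0.22 and 1.47 ± 0.21, edgeR adjusted *P* = 0.000177 and 0.000888). So did *Adamtsl3*, with differences of -0.93 ± 0.094 and -0.62 ± 0.11 (edgeR adjusted *P* = 4.69e-05 and 0.00488).

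Genes that work with the family were counted from lists of known partners. These counts are read against the same shares of all genes, which were 12.6% higher and 8.47% lower with nSREBP2, 5.33% in either direction with sh1, and 8.59% higher and 9.48% lower with sh2. Of 14 genes tested that activate MMPs or hold them at the cell surface, 7 rose and 2 fell with nSREBP2, 0 passed with sh1, and 5 rose and 3 fell with sh2. *Plau*, the urokinase gene, was at 14.7, 11.3 and 15.8 CPM with GFP and 24.1, 18.99 and 25.7 CPM with nSREBP2 (log2FC = 0.71 ± 0.15, edgeR adjusted *P* = 0.00934), and at 11.5, 9.45 and 9.44 CPM with ctrl sh and 24.4, 25.7 and 23.9 CPM with sh2 (log2FC = 1.29 ± 0.11, edgeR adjusted *P* = 0.000154). *Furin*, which cuts the propeptide of MT1-MMP and of ADAMTS proteases, fell with both (log2FC = -0.68 and -0.65). *Plg*, the plasminogen gene, had no count.

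Of the substrates, *Vcan*, the versican gene, was at 101, 128 and 66.8 CPM with GFP and 229.8, 274 and 262 CPM with nSREBP2 (log2FC = 1.37 ± 0.19, edgeR adjusted *P* = 0.000838). *Vcan* also rose with sh1 and sh2, by 0.62 and 1.03, whereas *Acan*, the aggrecan gene, fell in all 3 comparisons (log2FC = -0.62, -0.94 and -1.72). Of 5 substrate and link protein genes tested, 1 rose and 2 fell with nSREBP2, 1 rose and 1 fell with sh1, and 2 rose and 1 fell with sh2. Of 13 genes listed as fibrillins and microfibril partners, not all of them known to bind ADAMTS-like proteins, 6 rose and none fell with nSREBP2. Among them *Lox*, the collagen and elastin cross-linking enzyme, was at 1.25. None passed with sh1, and 2 rose and 2 fell with sh2.

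The ADAM proteases, the family's membrane-bound relatives, counted 5 higher and 1 lower of 10 with nSREBP2, 1 higher of 10 with sh1 and 2 lower of 11 with sh2, the hairpin counts resting on 1 and 2 genes. *Adam8*, found on leukocytes, had the largest change with nSREBP2 (1.67, from 2.97, 4.35 and 4.95 to 11.7, 13.6 and 14.0 CPM). Of the procollagen and astacin proteases, 3 of 5 rose and 1 fell with nSREBP2, 1 of 4 rose with sh1, and 2 of 4 rose and 1 fell with sh2. *Bmp1*, the procollagen C-proteinase, rose with nSREBP2 (0.61) and sh2 (0.56), as did *Dpy19l1*, which glycosylates thrombospondin repeats (0.32 and 0.23). Of the 4 genes for that glycosylation, 2 rose with nSREBP2, 0 passed with sh1 and 1 rose with sh2.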

How the data were processed

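RNA-seq counts of 18 mouse libraries were used, 3 in each of 6 groups named by the sample labels. The authors deposited whole-number counts per gene, without normalization; STAR and the GRCm38 build are named in the submitters' processing notes, and the annotation is not given in the sources used here. Directional libraries were made after removal of ribosomal RNA, but whether counting used strand is not given in the sources used here, so overlapping genes have uncertain counts. The 1 row that names no gene was left out.

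Tests used the quasi-likelihood functions of edgeR 4.0.16 (R 4.3.3) on the 2 groups of a comparison, after its default count filter and TMM scaling, with Benjamini-Hochberg adjustment over all genes tested. DESeq2 1.42.0 was an alternative. Differences of effects were tested as interaction contrasts on 12 libraries. SEs come from the log2FC and its F statistic. CPM used TMM factors of all 18 libraries, and exon lengths and positions come from GENCODE M21. The labels do not say whether libraries were prepared in batches. Replicates share only a number: same-numbered libraries had correlated deviations of -0.259 to 0.265, in no comparison all above 0.1. No pair of replicates agreed within sampling noise. On simulated counts of nSREBP2 versus GFP, edgeR recovered 198 of 200 genes changed by a log2 fold of 2 with 11 false calls among 17577 genes, and DESeq2 196 with 10 false calls. The changed genes were drawn from those of higher level only. The recovery thus does not apply to low members such as *Adamts18*, *Mmp9* and *Mmp12*, or to smaller changes. With 3 libraries per group, small changes of low genes are not detectable, and floors cover counting error only.

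Members, lists and tests were chosen with earlier results of these data known. Named are the 4 *Timp* genes, members called in any comparison, those that passed in 2 or more of the 3 comparisons with the vector controls (nSREBP2, sh1, sh2), and the 5 highest per length. Others are named after their values were seen.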

Additional observations from a re-analysis of the deposited data

Results flagged for a closer look

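For 15 of 43 members the effect of nSREBP2 (against GFP) differed from that of *Lrp2* sh1 (against ctrl sh) by edgeR's test of the difference (34.9%, with 12.5% of all genes tested). The 2 effects share no library, but only the nSREBP2 mice were male, so sex and nSREBP2 cannot be told apart in this test. Their controls, GFP and ctrl sh, also differed in the summed level of the RPE markers, and the part of this was not tested. The difference in log2FC, nSREBP2 minus sh1, was positive for 10. It was 2.24 for *Adamts18*, 2.02 for *Mmp9*, 1.78 for *Adamts14*, 1.38 for *Timp1* and 1.25 for *Adamts3*. *Adamts18* was too low to be tested with sh1 against ctrl sh alone, and entered the test of the difference through the nSREBP2 libraries. The difference was 1.16 for *Adamts8*, 1.09 for *Adamts6*, 1.03 for *Mmp23*, 0.69 for *Mmp14* and 0.67 for *Adamts17*. It was negative for *Mmp13* (-1.49), *Mmp24* (-1.42), *Adamtsl3* (-0.93), *Timp3* (-0.66) and *Adamtsl4* (-0.42). For *Mmp13* and *Mmp24* neither effect passed by itself (log2FC = -0.79 and -0.76 with nSREBP2, 0.70 and 0.65 with sh1), and their differences failed to pass in 10 and 11 of 12 fits that left out 1 library, as did those of *Adamtsl4* in 11, *Adamts8* in 7 and *Mmp9* in 1 (without ctrl sh replicate 1). In a fit of all 18 libraries the differences of *Adamts18*, *Mmp9*, *Adamts8*, *Mmp24* and *Adamtsl4* did not pass (edgeR adjusted *P* = 0.339, 0.124, 0.0724, 0.0768 and 0.0587).

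Against *Lrp2* sh2 the effect of nSREBP2 differed for 7 of 43 members (16.3%, with 6.39% of all genes). The controls were again GFP and ctrl sh, which differed in RPE marker level. The difference in log2FC, nSREBP2 minus sh2, was 1.47 for *Adamts14*, 0.93 for *Adamts17*, 0.81 for *Mmp23*, 0.66 for *Adamts6*, 0.62 for *Mmp2*, 0.49 for *Mmp14* and -0.62 for *Adamtsl3*. The difference of *Adamts6* failed to pass in 11 of 12 fits that left out 1 library, that of *Mmp14* in 5 and that of *Mmp2* in 2. For *Timp1*, *Timp3*, *Adamts8* and *Adamts18* the difference between nSREBP2 and sh2 did not pass (edgeR adjusted *P* = 0.678, 0.371, 0.863 and 0.54), with values of 0.29 ± 0.33, -0.18 ± 0.11, 0.14 ± 0.32 and -0.48 ± 0.39, which does not show that the effects are equal.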

How the results depend on the processing

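Of 1251 values of the 88 member results under other settings, 1042 kept their direction and side of the threshold, 202 lost the test, 3 gained it (*Timp4* with nSREBP2 and *Timp2* with both hairpins, against uninjected mice) and 4 turned. All 66 values with DESeq2's size factors kept theirs. Turned were *Adamts18* with nSREBP2 and sh2 (-0.92 and -0.78) and *Mmp28* with nSREBP2 (0.068) against uninjected mice, and *Timp1* with sh1 without ctrl sh replicate 1 (-0.13, with a range of -0.13 to 0.38 over the fits that left out 1 library, none of which passed). For adjusted *P* alone the counts were 25 for nSREBP2, 3 for sh1, 11 for sh2, 14 for sh2 against sh1, 1 for GFP against uninjected and 5 for ctrl sh against uninjected. Against uninjected mice the calls were 4 for sh1 and 7 for sh2. With sex as a term they were 5 for sh2, 5 for sh2 against sh1, 3 for GFP and 4 for ctrl sh against uninjected. For GFP against uninjected, DESeq2 gave 1, and both no filter and all 18 libraries gave 3. For ctrl sh against uninjected, no filter and all 18 libraries gave 4. Leaving out each library gave 9 to 11 calls for nSREBP2, 0 for sh1, 2 to 3 for sh2, 1 to 4 for sh2 against sh1 (1 without sh1 replicate 1), 0 to 2 for GFP (1 without uninjected replicate 1, 2 without GFP replicate 3) and 0 to 2 for ctrl sh against uninjected (0 without ctrl sh replicate 2, 1 without ctrl sh replicate 1 or uninjected replicate 3). Differences of effects, 15 against sh1 and 7 against sh2, then numbered 11 to 19 and 4 to 7 (4 without GFP replicate 1 or 2). With the replicate number as a block, calls went from 2 to 0 for ctrl sh against uninjected and were 4 for sh2 against sh1. They stayed at 10 for nSREBP2, 0 for sh1 and GFP and 3 for sh2. With this block 12 of 88 results lost the test. More did so with sex as a term (24 of 88) and when all 18 libraries shared a fit without that term (15 of 88). For nSREBP2 the losses with sex as a term included the calls of *Adamts18* and *Mmp12*, while *Mmp19* and *Mmp25* became called. The causes were not tested. Members near the floor of 3 counts, 0.219 to 0.336 CPM, are limited by depth.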
